A study of Homo sapiens with 4 samples.

Results

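Complement is a cascade of plasma and cell-surface proteins in which proteases cleave one another and C3. Fragments of C3 coat a target, and later steps lead to the lytic pore. Host cells carry membrane proteins that stop the cascade on their own surface, and epithelia also make acute-phase proteins, secreted mainly by liver during inflammation. The 9 genes described here, chosen by name from the features of the deposited tables, were the classical-pathway proteases C1R and C1S, C3 and the convertase subunit gene CFB, the regulators CD46, CD55 and CLU, and the acute-phase genes LCN2 and SAA1. All 9 were found among 60766 features, each once.

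The RNA came from HCT116, an established human colon carcinoma cell line. There were 2 libraries labelled shARID1A, with the genotype ARID1A knockdown (sh is the usual prefix of a short hairpin RNA), and 2 libraries labelled control (CTR). All 4 were grown in the same RPMI1640 medium with serum, and the question posed was how ARID1A, which belongs to SWI/SNF chromatin remodellers, relates to immune functions. The labels do not give the hairpin sequence, the construct in the controls, whether the knockdown line was 1 clone, or whether replicates were separate cultures. The p-values therefore measure the spread between these libraries, which may be technical.

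Levels are given as FPKM, fragment numbers scaled by transcript length and by library total, so levels of different genes can be set side by side. The fragment totals were estimated from steps between low values at 75750000 and 74500000 in the knockdown libraries and 69000000 and 70750000 in the controls. Thus 1 FPKM over 1 kb rests on at most about 69.0 to 75.8 fragments. ARID1A was at 7.05 and 6.13 FPKM in the knockdown libraries and 11.1 and 11.4 FPKM in the controls (log2 change -0.69, limma adjusted p = 0.00438). With 2 libraries a group an exact permutation test (two-sided) cannot go below p = 0.333, which is what ARID1A gave. Of 10 colon epithelial markers, 6 reached 1 FPKM in every library, CDX1 was at 0 in all, and LGALS4, VIL1 and CDH17 stayed under 1 FPKM. The list did not move one way. Its sum was 4003 and 4160 FPKM in the knockdown libraries and 3025 and 2920 FPKM in the controls, mostly through KRT8, KRT18 and KRT19, which rose, while EPCAM fell, at 147 and 141 FPKM in the knockdown libraries and 312 and 312 FPKM in the controls (log2 change -1.11, limma adjusted p = 0.000363), and CDH1 and CDX2 were not called. Of 10 hepatocyte markers 9 were under 1 FPKM in every library, with APOB, APOH, TTR and CYP3A4 at 0. The sum was 5.18 and 4.66 FPKM in the knockdown libraries and 3.52 and 3.30 FPKM in the controls. HNF4A made up most of that sum, at 4.71 and 4.42 FPKM in the knockdown libraries and 3.27 and 3.21 FPKM in the controls. HNF4A rose (log2 change 0.39, limma adjusted p = 0.0165). Of 10 monocyte, macrophage and neutrophil markers 9 were under 1 FPKM, with TYROBP, S100A8, S100A9 and FCGR3A at 0. That list summed to 3.09 and 3.95 FPKM in the knockdown libraries and 8.09 and 6.17 FPKM in the controls, mostly through the lysosomal gene CD68. Of 8 lymphocyte, 8 fibroblast and 6 endothelial markers only COL1A1 reached 1 FPKM in every library. The part of these sums in the results was not tested. In bulk RNA, fewer cells of a type and less RNA per cell cannot be told apart.

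In 7 of the 9 genes both ARID1A knockdown libraries lay under both controls, and in 0 they lay above. Of the 9 genes, 6 had a mean of at least 1 FPKM over the 4 libraries and were tested. Among these 6, 5 fell (LCN2, CFB, CLU, CD46 and CD55), 0 rose and 1 (C1R) was not called, by limma with an adjusted p under 0.05. Across all 13605 tested features 18.9% fell and 18.2% rose by the same call, 37.1% in all. LCN2 and CFB reached the filter only through the controls, with knockdown means under 1 FPKM, so they could enter the test only as genes that differed, and the count of 5 is a description of these 6 genes that is not read against the background. Every knockdown library lay under every control library for the same 5 genes. Of all tested features 36.5% had that order, and 35.8% had every knockdown library above every control. C3 and C1S, below the filter, also had no overlap between groups, as did 25.1% of features with a mean of 0.1 to under 1 FPKM in that direction. Of the 5 calls, those of CD46, CLU and LCN2 held in each fit in which the gene was tested, while those of CFB and CD55 were lost in some. The count fell to 3 without control replicate 2, knockdown replicate 1 or knockdown replicate 2.

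**Figure D1:**
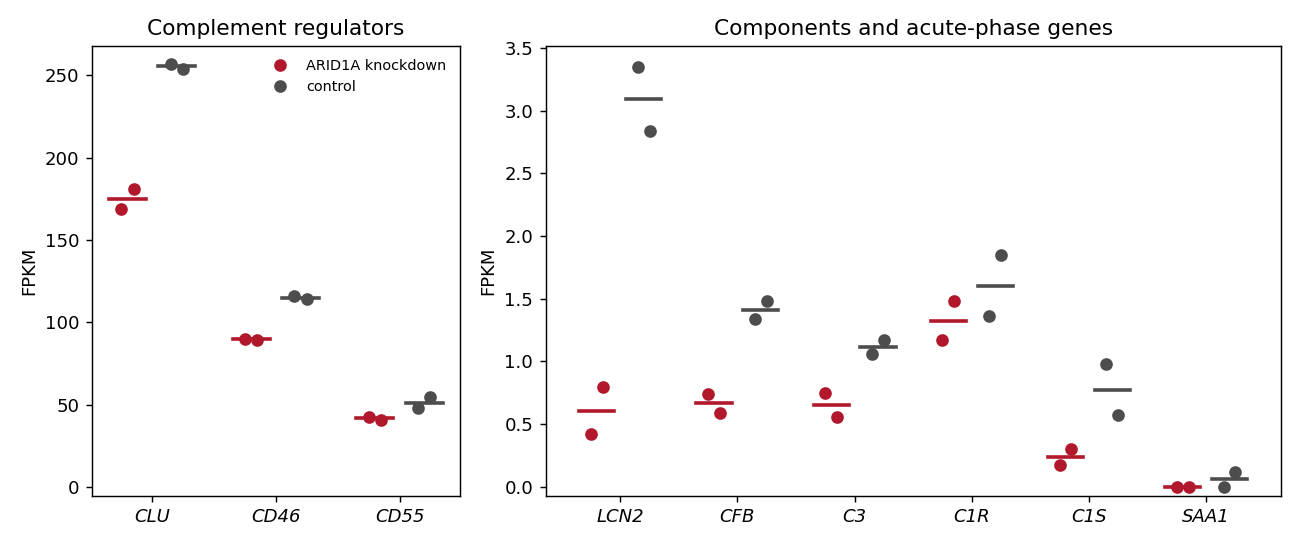
FPKM of the 9 genes in each library, with ARID1A knockdown in red at the left of each pair and control in grey at the right; points are libraries and lines are means of 2. The 3 regulators sit far above the other 6 genes, and CLU shows the widest gap in FPKM, 169 and 181 in the knockdown libraries against 257 and 254 in the controls.

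LCN2 showed the largest relative difference of the 6 tested genes. It encodes lipocalin 2, also called neutrophil gelatinase-associated lipocalin, which withholds iron from bacteria by binding their siderophores and is made by inflamed gut epithelium. It was at 0.424 and 0.794 FPKM in the knockdown libraries and at 3.35 and 2.84 FPKM in the controls, with no overlap. The means were 0.609 ± 0.261 FPKM in the knockdown and 3.10 ± 0.360 FPKM in the controls (SD, n = 2 each), so the knockdown held 19.7% of the control level. The log2 change was -1.36 (SE 0.156, limma adjusted p = 0.00469), on the log2(FPKM + 1) scale, which understates changes of low genes. With a pseudocount of 0.1 it was -2.22. On the scale of the reported fit, 60 of the tested features called lower fell by more. LCN2 passed the filter of 1 FPKM only through the controls. With a filter of at least 0.1 FPKM, which the means of both groups pass, its adjusted p was 0.00739 by limma. Over all 848 bases of its longest coding transcript these levels correspond to at most roughly 27 and 50 fragments in the knockdown libraries. For the controls the numbers were at most roughly 196 and 171. LCN2 spans chr9:128149071-128153453 of GRCh38, and no other feature in the files overlaps it.

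SAA1, the other acute-phase gene among the 9, encodes serum amyloid A1, an apolipoprotein of high-density lipoprotein that rises steeply in inflammation. It was listed at 0 in both knockdown libraries and in control replicate 1. In control replicate 2 it was at 0.118 FPKM, at most roughly 6 fragments. No change of SAA1 was detectable at this depth. SAA1, at chr11:18266260-18269977, also has a near-identical neighbour, SAA2, which was listed at 0 in both knockdown libraries and in control replicate 1 and at 0.0188 FPKM in control replicate 2, so reads of the pair could have been split.

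The most abundant of the 9 genes was CLU, which encodes clusterin, a secreted chaperone that keeps the terminal complement complex from inserting into membranes. CLU was at 169 and 181 FPKM in the knockdown libraries and at 257 and 254 FPKM in the controls. The highest knockdown library thus lay well under the lowest control, and the means were 175 ± 8.47 FPKM in the knockdown and 256 ± 2.20 FPKM in the controls (SD, n = 2 each). CLU fell to 68.5% of the control level, a log2 change of -0.54 (SE 0.0447, limma adjusted p = 0.00209). CLU lies on chromosome 8 at 27596917 to 27614700, and the microRNA feature MIR6843 within it was listed at 0 in every library.

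CD46 and CD55 encode the membrane regulators that act on C3 and its convertase. CD46, membrane cofactor protein, helps factor I to cleave C3b and C4b, and CD55, decay-accelerating factor, takes the C3 convertases apart. CD46 was at 90.1 and 88.9 FPKM in the knockdown libraries and at 116 and 114 FPKM in the controls. Its replicates lay close together beside that gap, and the log2 change was -0.35 (SE 0.0336, limma adjusted p = 0.00288), with the knockdown at 78.0% of the control level. CD55 was at 42.4 and 40.7 FPKM in the knockdown libraries and at 47.7 and 54.6 FPKM in the controls. The groups did not overlap, but the controls differed from each other by more than the knockdown mean lay under the lower control. The log2 change of CD55 was -0.29 (SE 0.0733, limma adjusted p = 0.0362), with the knockdown at 81.2% of the control level. The adjusted p of CD55 was 0.104 when control replicate 2 was left out, 0.0883 and 0.115 when knockdown replicate 1 or 2 was, so that the call was lost in each. The 2 genes kept a similar ratio to each other, with CD46 at 2.12 and 2.18 times the FPKM of CD55 in the knockdown libraries and 2.42 and 2.08 times in the controls. CD46 and CD55 lie near each other on chromosome 1, at 207752057 to 207795513 and 207321376 to 207386804.

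Together CD46, CD55 and CLU summed to 302 and 311 FPKM in the knockdown libraries and 420 and 422 FPKM in the controls. C3, C1R, C1S and CFB summed to only 2.84 and 2.93 FPKM in the knockdown libraries and 4.74 and 5.08 FPKM in the controls. The summed level of these 3 regulators was thus far above that of these 4 components in every library, and both sums were lower in the knockdown libraries. The component gene CFD, outside the 9, was the exception in level, above CD55 in every library.

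CFB encodes factor B, whose cleaved fragment joins C3b to form the alternative-pathway C3 convertase. It was at 0.743 and 0.592 FPKM in the knockdown libraries and at 1.34 and 1.48 FPKM in the controls. No knockdown library reached a control. The knockdown held 47.2% of the control level, with a log2 change of -0.53 (SE 0.122, limma adjusted p = 0.0282). CFB too passed the filter only through the controls, and with a filter of at least 0.1 FPKM, which both groups pass, its adjusted p was 0.0242 by limma. Leaving out knockdown replicate 1 or 2 gave CFB an adjusted p of 0.0522 or 0.0851, so that the call was lost, and without either control replicate CFB fell below the filter. CFB, at chr6:31945650-31952084, shares 2249 exonic bases with the feature AL645922.1, which was listed at 0 in all 4 libraries. It also shares 23 exonic bases with the adjacent gene C2, which was at 0.774 and 1.13 FPKM in the knockdown libraries and 0.913 and 0.726 FPKM in the controls.

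C3, the central component, was just under the filter with a mean of 0.882 FPKM, where CFB was just above it with 1.04 FPKM. It was at 0.749 and 0.554 FPKM in the knockdown libraries and at 1.06 and 1.17 FPKM in the controls, so the groups did not overlap and the knockdown mean was 58.5% of the control mean. With a filter of at least 0.1 FPKM, C3 had a log2 change of -0.36 and did not pass (limma adjusted p = 0.0718). The C3 locus, chr19:6677704-6730562, overlaps that of GPR108, a membrane protein gene transcribed from the same strand, at the start of C3, without shared exonic bases in GENCODE 29. GPR108 was at 33.8 and 36.2 FPKM in the knockdown libraries and 39.8 and 39.9 FPKM in the controls, far above C3 (log2 change -0.18, limma adjusted p = 0.0393). The part of GPR108 reads in the C3 values was not tested.

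C1R and C1S encode the paired serine proteases of the C1 complex, which C1q activates when it binds antibody. C1S was at 0.177 and 0.301 FPKM in the knockdown libraries and at 0.978 and 0.575 FPKM in the controls. Its groups did not overlap and the knockdown mean was 30.8% of the control mean, although the controls differed widely, and these levels rest on roughly 41 and 69 fragments in the knockdown libraries and 208 and 125 in the controls. With a filter of at least 0.1 FPKM, C1S had a log2 change of -0.51 and did not pass (limma adjusted p = 0.0677). C1R was at 1.17 and 1.48 FPKM in the knockdown libraries and at 1.36 and 1.85 FPKM in the controls. These overlap, since knockdown replicate 2 lay above control replicate 1. The log2 difference of C1R was -0.16 with a 95% interval of -0.54 to 0.22 (limma adjusted p = 0.421), so a fall or a smaller rise stays possible. The log2(FPKM + 1) scale understates changes of low genes. The interval of C1R therefore spans larger relative changes than the same values would for CLU. C1R stood at 6.59 and 4.91 times the FPKM of C1S in the knockdown libraries and 1.39 and 3.23 times in the controls.

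Both protease genes lie in a crowded stretch of chromosome 12. C1R, at 7080214 to 7092540, shares 672 exonic bases with C1RL, a C1r-like protease gene on the same strand. C1S, at 6988259 to 7071032, shares 229 exonic bases with the ribosome biogenesis gene EMG1, also on its strand, and spans part of LPCAT3 without shared exonic bases. EMG1 was at 39.7 and 46.7 FPKM in the knockdown libraries and 36.3 and 35.5 FPKM in the controls, many times the level of C1S. The values of C1R and C1S are uncertain for that reason.

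**Figure D2:**
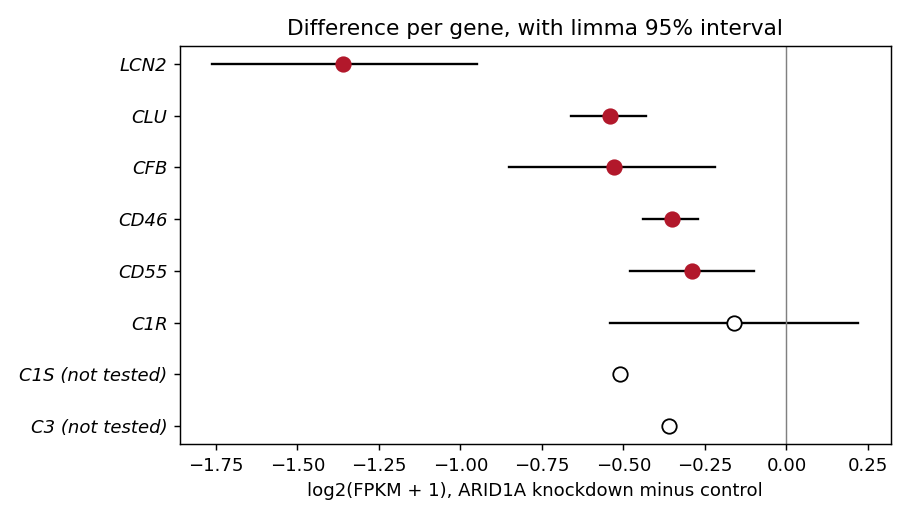
Difference in log2(FPKM + 1), ARID1A knockdown minus control, for 8 of the 9 genes; lines are limma 95% intervals, red points fell with an adjusted p under 0.05, and open points were not called or, for C1S and C3, not tested. LCN2 lies farthest from 0 at -1.36, and the interval of C1R (-0.54 to 0.22) crosses 0.

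By level, the order in the controls was CLU, CD46, CD55, LCN2, C1R, CFB, C3, C1S and SAA1. In the knockdown CLU, CD46 and CD55 kept ranks 1 to 3, while LCN2 stood at rank 7, against rank 4 in the controls. C1R and CFB overlapped in the controls (1.36 and 1.85 against 1.34 and 1.48 FPKM). CFB, C3 and LCN2 all overlapped in the knockdown, between 0.424 and 0.794 FPKM. The genes whose 4 values most resembled those of LCN2, by Euclidean distance of centred log2(FPKM + 1) over the 4 libraries, were MAP1B (distance 0.0727), SYNE2 (0.179) and CALB2 (0.197). MAP1B was at 1.08 and 1.64 FPKM in the knockdown libraries and 5.76 and 4.88 FPKM in the controls. SYNE2 was at 1.71 and 2.10 FPKM in the knockdown libraries and 7.74 and 6.74 FPKM in the controls. CALB2 was at 4.06 and 4.53 FPKM in the knockdown libraries and 12.2 and 12.2 FPKM in the controls. Their likeness to LCN2 is what selected them.

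Promoter sequence is shown for LCN2 and CFB, the genes with the largest relative falls among the tested, because both are textbook targets of inflammatory transcription factors. RefSeq windows of 250 bases before the transcript start were at hand for 5 of the 9 genes (LCN2, CFB, CD46, CD55 and C1R). They were searched on both strands for an NF-kB motif (GGGNNNNNCC), a STAT motif (TTCNNNGAA), an interferon-stimulated response element or ISRE (GAAANNGAAA) and a C/EBP motif (TTNNGNAA). Of 27305 RefSeq promoter windows of that length, 53.7% held the first, 6.78% the second, 3.07% the third and 33.6% the fourth. The windows of LCN2, CFB and CD55 lie inside the loci listed for these genes. Those of C1R lie partly or wholly inside its locus. Some of the bases searched may therefore be transcribed. Capitals mark matches, and bases are counted back from the RefSeq start (GRCh38.p14, plus strand).

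LCN2: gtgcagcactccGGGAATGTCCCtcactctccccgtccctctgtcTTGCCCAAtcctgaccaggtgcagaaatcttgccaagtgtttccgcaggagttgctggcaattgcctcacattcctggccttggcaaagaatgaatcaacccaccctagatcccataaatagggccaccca

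The LCN2 stretch, chr9:128149265-128149440, is 176 bases long and ends shortly before the start at 128149453. Its first run of capitals joins a pair of overlapping NF-kB matches, 1 on each strand (bases 176 to 167 and 175 to 166), and the other is a C/EBP match on the minus strand (143 to 136). The window had 0 STAT and 0 ISRE matches.

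CFB ISRE: ttctgcagTTTCTGTTTCcttgactggcag
CFB STAT: gcttggatgTTCCGGGAAagtgatgtgggt

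The CFB stretches are 30 bases each, chr6:31945947-31945976 and chr6:31945994-31946023, from the window before the start at 31946095. The ISRE match lies on the minus strand at bases 140 to 131. The STAT match, at bases 92 to 84, meets the motif on both strands. The CFB window also held 4 NF-kB matches, of which 2 overlap, and 0 C/EBP matches. CD46 had 3 NF-kB matches and CD55 had 1, and neither had any of the other 3 motifs. From the first of its 2 RefSeq starts C1R had 2 C/EBP matches only, and from the second it had 1 NF-kB, 1 STAT and 1 C/EBP match. A match says only that these letters occur.

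The other genes of the pathway were mostly near silent. Of 25 other complement component genes only 2 were tested, and 8 were listed at 0 in every library, among them the C1q chain genes C1QA, C1QB and C1QC. C1RL, whose locus overlaps C1R, fell, with 9.86 and 10.2 FPKM in the knockdown libraries and 18.5 and 15.8 FPKM in the controls (log2 change -0.72, SE 0.0856, limma adjusted p = 0.00517). CFD, encoding factor D, the protease that cleaves factor B, was at 64.0 and 71.4 FPKM in the knockdown libraries and 61.1 and 60.9 FPKM in the controls and was not called (log2 difference 0.15, limma adjusted p = 0.125; 0.0359 without knockdown replicate 1). Factor D transcripts thus stood far above those of its substrate in both groups.

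Of 20 other complement regulators, 5 were tested, of which 2 fell, 1 rose and 2 were not called, against 18.9% and 18.2% of all tested features that fell and rose. With either control left out the count that fell was 1 (CD59), and with any 1 of the 4 libraries left out the rise was lost. CD59, the surface protein that blocks the lytic pore, was at 130 and 131 FPKM in the knockdown libraries and 159 and 158 FPKM in the controls (log2 change -0.28, SE 0.0321, limma adjusted p = 0.0048). CD46, CD55 and CD59 together summed to 263 and 261 FPKM in the knockdown libraries and 323 and 326 FPKM in the controls. SERPING1, the C1 inhibitor that removes C1R and C1S from the C1 complex, was at 5.93 and 6.96 FPKM in the knockdown libraries and 9.47 and 9.77 FPKM in the controls (log2 change -0.52, adjusted p = 0.0116 by limma). Its call was lost without control replicate 1 (adjusted p = 0.0606) or control replicate 2 (0.0676). C1QBP, a mostly mitochondrial protein that binds C1q, was at 421 and 419 FPKM in the knockdown libraries and 386 and 378 FPKM in the controls. Its log2 change of 0.14 (limma adjusted p = 0.0311) was lost without any 1 of the 4 libraries (adjusted p from 0.0652 to 0.187) and was 0.02 under quantile normalization (0.737). Among 8 complement receptors only C5AR1 was tested, which encodes the receptor of the anaphylatoxin C5a. With a filter of at least 0.1 FPKM, 3 receptors were tested, of which 1 fell and 1 rose. Of the other regulators 9 were tested at that filter, of which 3 fell and 1 rose. At that filter 2308 of 19259 features fell and 2256 rose. CFI, encoding factor I, was at 0.107 and 0.0478 FPKM in the knockdown libraries and 1.09 and 0.91 FPKM in the controls. The knockdown held 7.74% of the control level. CFI passed that filter only through the controls, so the count of 3 regulators is not read against the background. C5AR1 was at 4.65 and 4.93 FPKM in the knockdown libraries and 2.65 and 2.48 FPKM in the controls, a rise of 0.70 on the log2 scale (SE 0.0777, limma adjusted p = 0.00428).

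The acute-phase genes outside the 9 that were tested split in direction. Of 25 such genes 4 were tested, and 2 fell and 2 rose, against 18.9% and 18.2% of all tested features. SERPINA3, a secreted protease inhibitor, was at 0.225 and 0.197 FPKM in the knockdown libraries and 18.1 and 16.6 FPKM in the controls (log2 change -3.92, limma adjusted p = 0.000167). It passed the filter only through the controls, so the count of 2 that fell is not read against the background. With a filter of at least 0.1 FPKM the adjusted p of SERPINA3 was 0.00047 by limma. SERPINA1, alpha-1 antitrypsin, was at 2.40 and 2.51 FPKM in the knockdown libraries and 29.1 and 26.6 FPKM in the controls (log2 change -3.06, limma adjusted p = 0.000183). Both fell by more than LCN2 on that scale. FTH1, the ferritin heavy chain, was at 6197 and 6578 FPKM in the knockdown libraries and 4345 and 4451 FPKM in the controls (log2 change 0.54, limma adjusted p = 0.00242). FTL, the ferritin light chain, was at 1749 and 1811 FPKM in the knockdown libraries and 1344 and 1351 FPKM in the controls (log2 change 0.40, limma adjusted p = 0.00266). Ferritin genes have processed pseudogenes that can share their reads. Overlapping features also make the values of FTH1 (BEST1), SERPINA3 (AL049839.2), C1RL (C1R and C1RL-AS1), CD59 (AL049629.2), C1QBP (RPAIN and DHX33), CEBPB (CEBPB-AS1), LIFR (LIFR-AS1) and OSMR (RICTOR) uncertain.

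Of the 23 genes of acute-phase signalling reported here (interleukin-6 and interleukin-1 receptors, JAK and STAT proteins, C/EBP and NF-kB factors), 20 were tested, of which 8 fell, against 18.9% of all tested features, and 12 were not called. Without control replicate 1 only 3 fell, and without control replicate 2 only 4. The median log2 change of the 20 was -0.12, and -0.003 over all tested features. This list was shortened after its values were seen, so its count of 8 is not read against the background. CEBPB, a transcription factor first described as an interleukin-6 response factor, was at 43.2 and 46.7 FPKM in the knockdown libraries and 64.9 and 68.4 FPKM in the controls (log2 change -0.56, SE 0.0547, limma adjusted p = 0.00313). SOCS3, a feedback inhibitor and target of STAT3, was at 14.3 and 13.5 FPKM in the knockdown libraries and 18.6 and 20.5 FPKM in the controls (log2 change -0.46, adjusted p = 0.00797 by limma). IL1RAP, the shared subunit of interleukin-1 receptors, was at 0.694 and 1.80 FPKM in the knockdown libraries and 3.26 and 3.36 FPKM in the controls (log2 change -0.98, limma adjusted p = 0.0372; 0.131 and 0.139 without control replicate 1 or 2). LIFR, a receptor for leukemia inhibitory factor, was at 2.15 and 1.78 FPKM in the knockdown libraries and 3.14 and 2.93 FPKM in the controls (log2 change -0.45, limma adjusted p = 0.0292). Without control replicate 1, control replicate 2 or knockdown replicate 2, LIFR had an adjusted p of 0.123, 0.0928 and 0.094. OSMR, the receptor subunit for oncostatin M, was at 18.6 and 18.1 FPKM in the knockdown libraries and 23.5 and 24.8 FPKM in the controls (log2 change -0.38, SE 0.0488, limma adjusted p = 0.00631). STAT3 was at 37.4 and 37.5 FPKM in the knockdown libraries and 41.1 and 39.9 FPKM in the controls and was not called (log2 difference -0.11, adjusted p = 0.0806 by limma). STAT3 was chosen after its values were seen, as were GPR108, EMG1, LPCAT3, C2 and SAA2, given as overlapping or neighbouring genes.

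**Figure D3:**
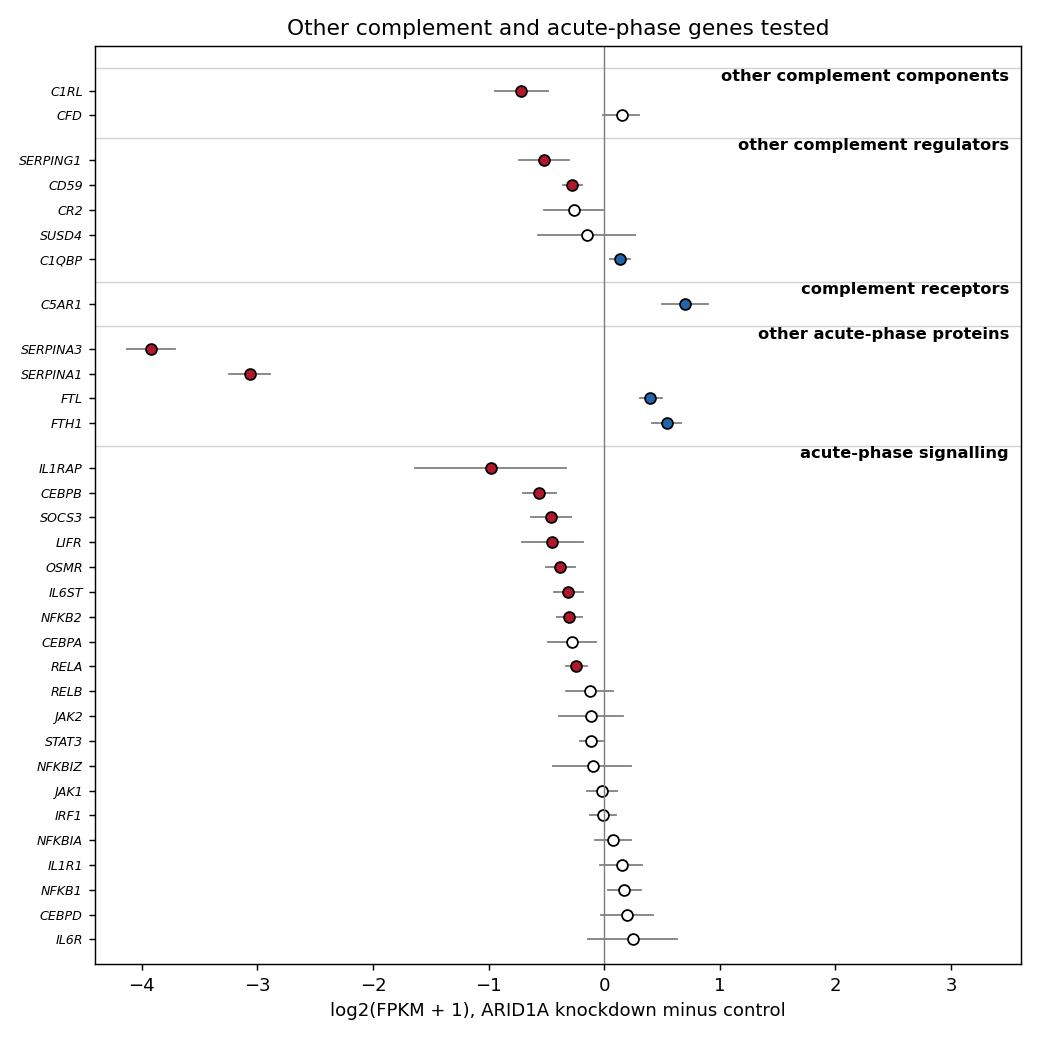
Difference in log2(FPKM + 1), ARID1A knockdown minus control, for the 32 tested genes of the 5 lists of other complement and acute-phase genes; lines are limma 95% intervals, red points fell, blue points rose and open points were not called. In all 13 fell and 4 rose, with SERPINA3 at -3.92 and C5AR1 at 0.70 as the ends.

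Over the 5 lists together, 13 of 32 tested genes fell and 4 rose, against 18.9% and 18.2% of all tested features. SERPINA3 entered the test only through the controls, and the signalling list was shortened after its values were seen. The counts therefore describe these genes and are not read against the background. The number that fell was 7 without control replicate 1 and 8 without control replicate 2.

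**Figure D4:**
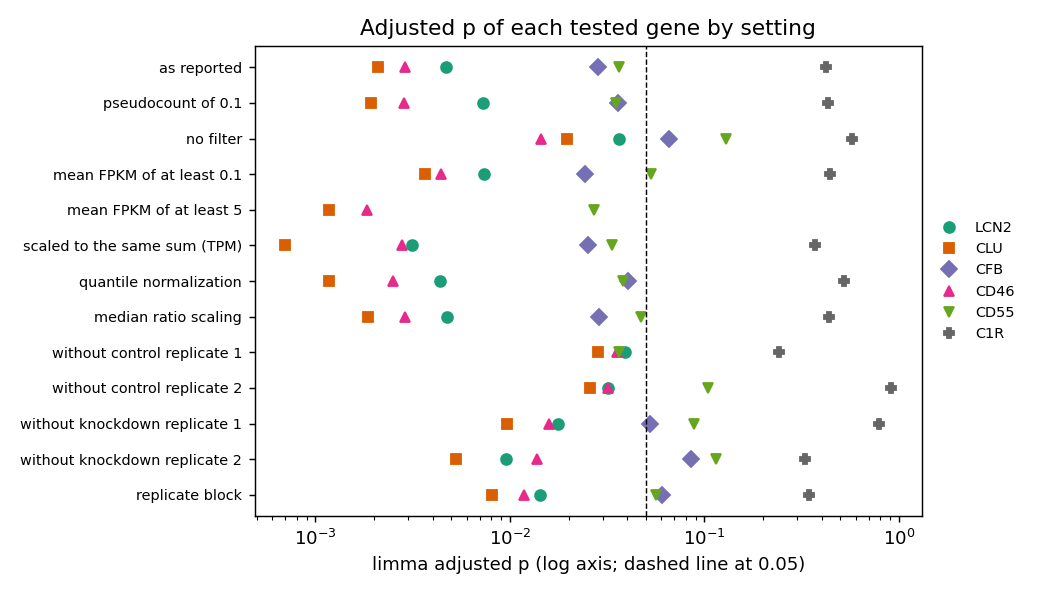
Adjusted p from limma (log axis) of the 6 tested genes (1 marker shape each) in each fit, with the dashed line at 0.05. CLU, CD46 and LCN2 stay left of the line in every fit that tested them, CFB and CD55 lie on both sides of it, and C1R stays to its right.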

How the data were processed

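Per the labels' protocols, 4 libraries were prepared from total RNA of HCT116 cells (NEBNext Ultra RNA kit). Each library has a deposited table of gene FPKM, a unit named in the file headers; STAR, Cufflinks and GRCh38 are named in the submitters' processing notes. Not given in the sources used here were tool versions, annotation, strand setting and filters, so reads of overlapping genes cannot be told apart.

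From 60811 rows, 45 second copies of pseudoautosomal genes were dropped, and 2347 values under 1e-9 were set to 0. Starts had 1 added to make them 1-based. FPKM are not counts, so limma 3.58.1 (R 4.3.3, trend on) was fitted to log2(FPKM + 1) of all 13605 features with a mean of at least 1 FPKM, knockdown minus control, and called at a Benjamini-Hochberg adjusted p under 0.05. This scale understates changes of low genes. The fit was also run on simulated data with far fewer changed genes than were called here and with independent noise. That run cannot show how far the calls hold where replicates may be technical. Strand, exons and lengths came from GENCODE 29 and promoters from RefSeq (GRCh38.p14). Fragment totals were fitted to genes with 1 annotated transcript, where 83.4% to 86.3% of low values were whole within 0.1 fragment. That fit took 275 to 300 bases off each transcript length. Fragment numbers per gene use the full length of its longest coding transcript. They are therefore approximate, and too high for short genes such as LCN2 and SAA1.

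Members and lists were chosen with earlier results of these data known. The list of acute-phase signalling genes was shortened after its values were seen, and 1 of its genes is not reported here. Besides the 9 genes, the text names ARID1A, the 3 nearest patterns to the most changed gene, and up to 5 called genes per list by size of change, or the most abundant tested gene where fewer than 2 were called. Alternatives changed the pseudocount, filter, scaling, replicate block and library left out.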

Additional observations from a re-analysis of the deposited data

How the results depend on the processing

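The direction of each tested gene and of C3 and C1S was the same under every alternative that gave a value, and ARID1A stayed called throughout (log2 change -0.60 to -0.78). CD46, CLU and LCN2 kept their calls in 12, 12 and 11 alternatives, with adjusted p up to 0.0354, 0.0283 and 0.0391. The log2 change of LCN2 ran from -1.19 to -2.22. CFB kept its call in 5 alternatives and lost it in 4, among them no filter (0.0656), and CD55 kept it in 6 and lost it in 6, among them no filter (0.129) and a filter of at least 0.1 FPKM (0.0529). The number of the 9 genes that fell was 3 with no filter, with a filter of at least 5 FPKM, which left only 3 genes to test, and with the replicate block, and ran from 3 to 4 with a library left out. Leaving out a control took CFB below the filter, so no value could be given there. A fit without 1 library takes the lone library of that group to vary like the other group. C3 did not pass with no filter (adjusted p = 0.135) or after scaling to the same sum (0.0862), nor C1S with no filter (0.139).

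Over all features with no filter 1413 fell and 1373 rose, against 2565 and 2481 as reported. With a library left out 1037 to 1805 fell and 1057 to 1665 rose. In the pathway lists 2 genes rose with no filter, and with a library left out 7 to 14 fell. The cause of these shifts was not tested. Replicate numbers are shared between groups, but same-numbered libraries did not deviate together (correlation -0.00993 over tested genes). That value cannot tell whether they shared a culture or batch, and the reported fit did not pair them. With the replicate block 2114 features fell and 2012 rose, 14 list genes fell and 3 rose, and the adjusted p was 0.0603 for CFB and 0.056 for CD55. Depth limits SAA1, C1S and LCN2 most.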
